A study of Mus musculus with 6 samples.

Results

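FOXO1, FOXO3 and FOXO4 are forkhead transcription factors. Of the genes described with them, Ccng2, Pdcd4, Btg1, Btg2, Tob1 and Pik3ip1 act against proliferation or limit growth signals. Irs2, the last, encodes an adaptor that passes growth signals on. These 10 genes were selected by symbol as FOXO factors and antiproliferative genes that growth signals repress, and all 10 were measured among 23185 named genes. FOXO proteins switch on genes of cell cycle exit, stress resistance and, in lymphocytes, homing and quiescence. When a growth factor or cytokine activates PI3-kinase, the kinase AKT phosphorylates the FOXO proteins, which are then bound by 14-3-3 proteins and held in the cytoplasm. FOXO activity is therefore set largely at the protein, and an mRNA level shows only the transcript.

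The study used a group 2 innate lymphoid cell (ILC2) line of C57BL/6J mice, kept in IL-33 and IL-2, each at 10 ng/ml. ILC2s are tissue lymphocytes that lack antigen receptors and release type 2 cytokines. The cells labelled Myc knockout received a lentiviral CRISPR construct with a guide against Myc, and the controls received the same construct with a non-target guide; both carried GFP and were sorted as GFP-positive on day 6 after transduction. Total RNA was hybridised to Affymetrix arrays, 3 labelled Myc knockout and 3 control. Whether replicate arrays stem from separate transduced cultures is not in the labels. The p-values therefore reflect the spread among these samples alone, and that spread may be technical. A sorted population may hold cells with different edits, and the labels do not give the edited share.

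The targeted gene did not follow the label. Myc was at 9.55, 9.79 and 9.73 in the arrays labelled Myc knockout, against 9.27, 9.33 and 9.39 in the controls, on the log2 scale of the deposited RMA values. The groups did not overlap, with the controls 1.28-fold lower (limma's unadjusted p = 0.00329, adjusted p = 0.127). A transcript level does not show whether the protein was disrupted, so it is a weak check of the edit. The cause of the higher level was not tested, and the groups are called by their labels throughout. Array medians were 3.27 to 3.34 and lower quartiles 2.04 to 2.13. Among 12 ILC2 markers, Gata3, Id2, Il7r, Il2ra, Icos, Il5 and Il13 were bright, with group means between 9.19 and 11.58. Klrg1 averaged 7.36 in the arrays labelled Myc knockout and 7.57 in the controls, and Kit averaged 4.45 and 3.99 in the same order. Rora averaged 3.99 and 4.01, Thy1 3.32 and 3.21, and Il17rb 2.12 and 2.09, again in that order. Of the 12, Il5 rose (limma's adjusted p = 0.0386) and 0 fell. At an unadjusted p under 0.05 in limma, 5 were higher (Il2ra, Kit, Icos, Il5 and Il13) and 2, Gata3 and Il7r, lower. The T cell genes Cd3e and Cd4 and the B cell gene Cd79a averaged between 1.92 and 2.24 in both groups, but the T cell genes Cd3g and Cd8a were above the array medians. The T cell gene Cd28 and the B cell gene Pax5 averaged slightly above those medians, between 3.42 and 3.51 in both groups.

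Of the 10 genes, 2 fell in the arrays labelled Myc knockout: Ccng2, by 1.75-fold, and Pdcd4, by 1.40-fold. None rose. In RNA from a whole sorted population, a lower level in each cell cannot be told apart from a smaller share of cells that express the gene. Over all genes tested, 0.198% fell and 0.254% rose by the same criterion, a Benjamini-Hochberg adjusted p under 0.05 in limma. At an unadjusted p under 0.05, Foxo1, Foxo3 and Pik3ip1 were lower too, which made 5 lower and 0 higher, beside 7.91% of all genes lower and 6.97% higher. In a limma fit of only the genes at least as bright as the median gene, 1795 of 11593 were lower and 992 higher at that p. The 10 genes again gave 5 lower and 0 higher. For the same 5 genes, every array labelled Myc knockout lay below every control; the groups were separated in that direction for 10.6% of all genes, and in the other for 9.25%. All 10 genes were brighter than the median gene, and among the genes at least that bright 18.6% were separated downward and 10.8% upward. The fitted log2 difference, arrays labelled Myc knockout minus control, was negative for 8 of the 10 genes with a median of −0.19, and negative for 47.8% of all genes with a median of 0.0077. Among the genes at least as bright as the median gene 58.0% were negative, with a median of −0.030.

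**Figure D1:**
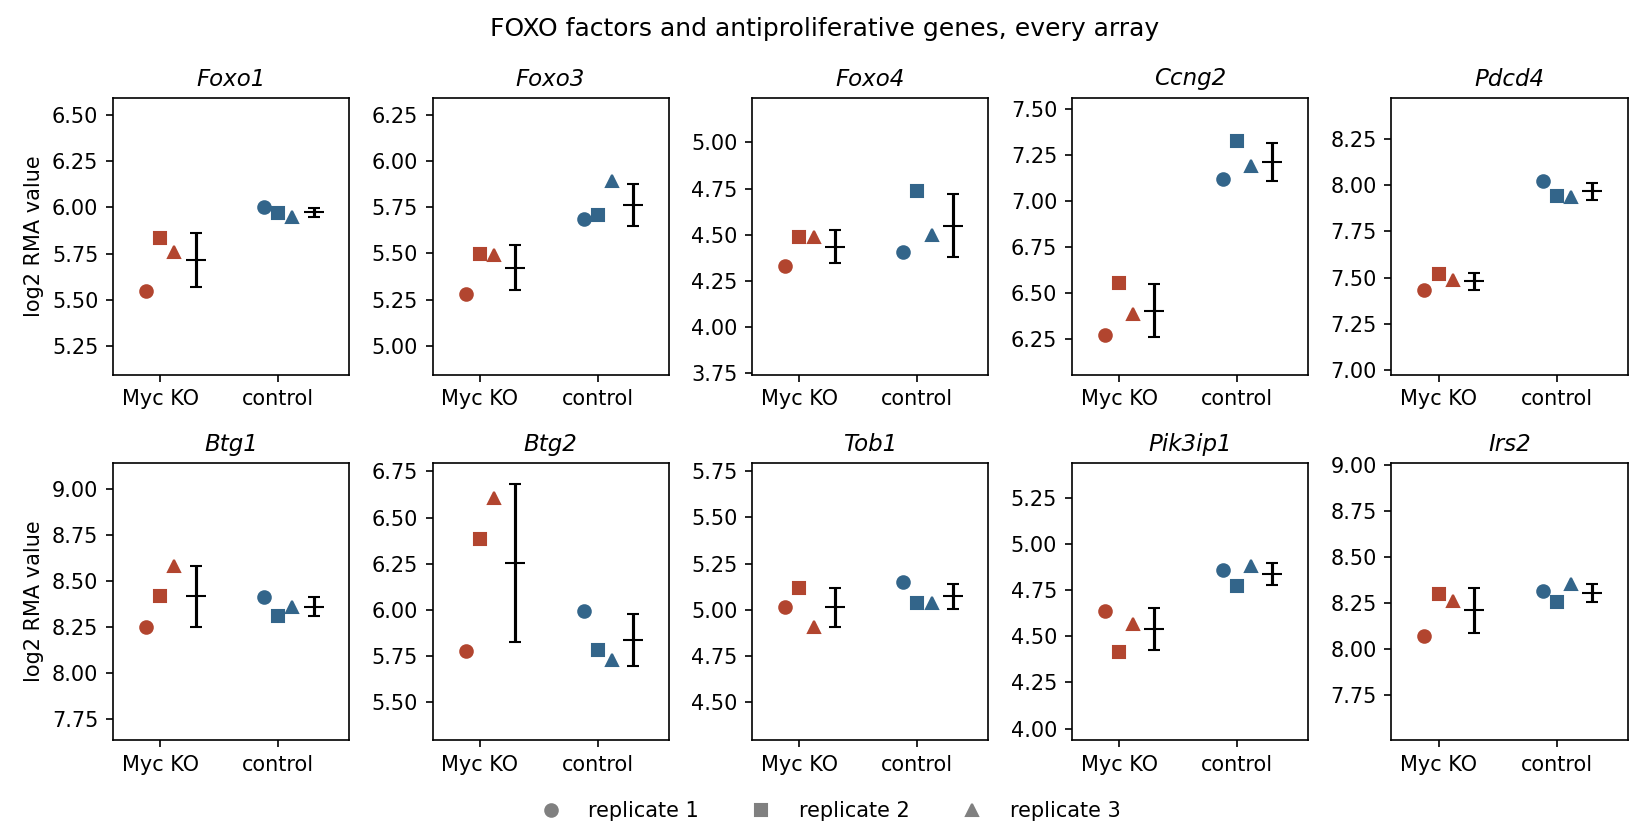
Log2 RMA value (vertical axis, each panel spanning the same range of log2 units) of the 10 genes on the 3 arrays labelled Myc knockout (left, red) and the 3 control arrays (right, blue); symbols mark the replicate, and black bars show mean ± SD. The groups are separated for Foxo1, Foxo3, Ccng2, Pdcd4 and Pik3ip1 and overlap for the other 5 genes.

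Among the FOXO factors, Foxo3 and Foxo1 were lower in the arrays labelled Myc knockout without passing the test over all genes. Foxo1, the family member with the best known role in lymphocyte homing and quiescence, was at 5.55, 5.83 and 5.76 in the arrays labelled Myc knockout and at 6.00, 5.97 and 5.95 in the controls. The controls lay close together and the arrays labelled Myc knockout were spread below them, which gave means of 5.71 ± 0.15 and 5.97 ± 0.026 (SD, n = 3 each). The log2 difference was −0.26 ± 0.084 (SE; 95% confidence interval −0.46 to −0.06; limma's adjusted p = 0.245).

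Foxo3, which overlaps with Foxo1 in the genes it can activate, was at 5.28, 5.50 and 5.49 in the arrays labelled Myc knockout, against 5.68, 5.71 and 5.89 in the controls. The highest array labelled Myc knockout was below the lowest control. Its log2 difference was −0.34 ± 0.091 (95% confidence interval −0.56 to −0.12; limma's adjusted p = 0.178). Foxo4, the third factor, was at 4.33, 4.49 and 4.49 in the arrays labelled Myc knockout and at 4.41, 4.74 and 4.50 in the controls. These values overlapped, and the interval of the difference, −0.35 to 0.13, held a decrease as large as that of Foxo3 as well as no decrease. The remaining paralog Foxo6, looked up after its values were seen, averaged 2.88 ± 0.15 and 3.01 ± 0.12 in the arrays labelled Myc knockout and the controls, below the array medians. By an exact permutation test over arrays (two-sided), p was 0.1 for Foxo1 and Foxo3, which is the lowest possible in this design, and p was 0.4 for Foxo4.

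Ccng2 and Pdcd4 carried the calls. Ccng2 encodes cyclin G2, an unconventional cyclin that is high in cells leaving the cell cycle and a known target of FOXO factors. It was at 6.27, 6.56 and 6.39 in the arrays labelled Myc knockout and at 7.12, 7.32 and 7.19 in the controls, so all values of one group were below all values of the other. Means were 6.41 ± 0.14 and 7.21 ± 0.10 (SD, n = 3 each), and the log2 difference was −0.81 ± 0.094 (95% confidence interval −1.03 to −0.58; limma's adjusted p = 0.0353). It ranked 52 by p among all genes.

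Pdcd4 encodes a protein that binds the helicase eIF4A and so holds back translation initiation, and that is destroyed after phosphorylation by S6 kinase. It was at 7.43, 7.52 and 7.49 in the arrays labelled Myc knockout, against 8.02, 7.94 and 7.94 in the controls. Both groups were tight and well separated, with means of 7.48 ± 0.045 and 7.97 ± 0.047 and a log2 difference of −0.49 ± 0.058 (95% confidence interval −0.63 to −0.35; limma's adjusted p = 0.0353). Both calls rest on all 6 arrays. With any 1 array left out, limma's adjusted p was 0.105 to 0.174 for Ccng2 and 0.109 to 0.163 for Pdcd4, while the log2 differences stayed between −0.88 and −0.74 and between −0.51 and −0.46. In the same order, limma's unadjusted p was 0.00014 to 0.00077 and 0.00037 to 0.00058. Over all genes, only 0 to 2 then rose and 0 to 1 fell.

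Because these 2 genes passed the threshold, the 100 bases before their annotated starts are shown, 5′ to 3′, from RefSeq's GRCm38.p6. For Pdcd4 the more upstream of 2 annotated starts is used. The stretches are chr5:93267473-93267572 (plus strand) for Ccng2 and chr19:53892131-53892230 (plus strand) for Pdcd4.
Ccng2: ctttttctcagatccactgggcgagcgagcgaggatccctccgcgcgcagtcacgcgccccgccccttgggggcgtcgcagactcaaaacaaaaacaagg
Pdcd4: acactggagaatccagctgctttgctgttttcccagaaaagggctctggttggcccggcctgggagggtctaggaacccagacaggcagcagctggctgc
A pair of motifs was searched on both strands in windows of 300 bases, from 250 bases before each start to 50 after it: GTAAACA, the core bound by FOXO factors, and CACGTG, the E-box bound by MYC with MAX, which reads the same on both strands. A match of one motif can share a pair of bases with a match of the other. The windows of Ccng2 and Pdcd4 held neither, which says only that these letters are not in these windows. Of 32851 promoter windows, 3.65% held GTAAACA and 7.15% held CACGTG. Of 10 windows found for 9 of the 10 genes, 1 held each motif; no window was given for Foxo4.

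By the rule for likeness, the 3 genes closest to Ccng2 over the 6 arrays were Bcar1, Ankrd37 and Dnm1. The measure was the root mean square difference between values centred on each gene's own mean, which was 0.0724, 0.102 and 0.106 log2 units in that order. Bcar1, an adaptor of adhesion signalling, was at 5.45, 5.73 and 5.62 in the arrays labelled Myc knockout and at 6.29, 6.33 and 6.28 in the controls. All 3 genes were lower in every array labelled Myc knockout than in any control, as Ccng2 was. Their choice by likeness to Ccng2 made this nearly certain, so it is no separate result.

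**Figure D2:**
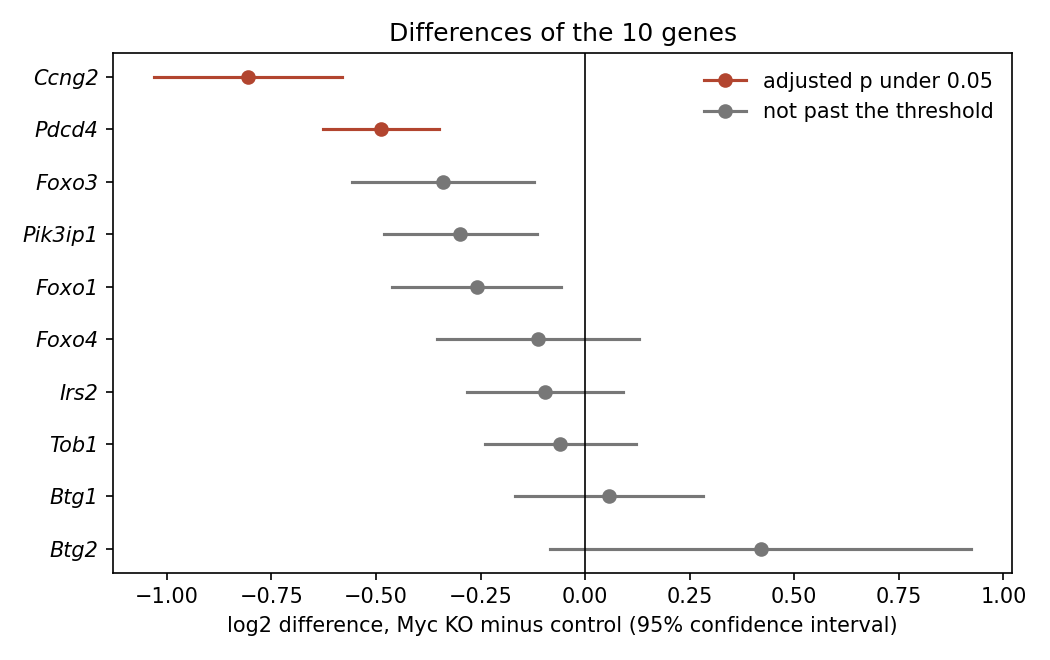
Log2 difference, arrays labelled Myc knockout minus control (horizontal axis), of the 10 genes, as points with 95% confidence intervals from limma; red marks an adjusted p under 0.05. Ccng2 and Pdcd4 lie at −0.81 and −0.49, the intervals of Foxo3, Pik3ip1 and Foxo1 are below 0 without passing over all genes, and those of the other 5 genes include 0.

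The PI3-kinase side of the pathway was represented by a brake and an adaptor. Pik3ip1 encodes a membrane protein that inhibits PI3-kinase and is known to restrain T cell activation. It was at 4.64, 4.41 and 4.57 in the arrays labelled Myc knockout and at 4.86, 4.77 and 4.88 in the controls. The groups did not overlap, and the log2 difference was −0.30 ± 0.076 (95% confidence interval −0.48 to −0.12; limma's adjusted p = 0.168), so it did not pass. Irs2 encodes an adaptor that couples insulin and IL-4 receptors to PI3-kinase, and FOXO factors activate it in liver. It was at 8.07, 8.30 and 8.26 in the arrays labelled Myc knockout and at 8.31, 8.25 and 8.35 in the controls. Only replicate 1 of the arrays labelled Myc knockout stood below all controls, and the interval of the difference was −0.28 to 0.09 (exact two-sided permutation p = 0.3). Irs1, Irs3 and Irs4, looked up after their values were seen, had group means between 1.67 and 3.19, below the array medians.

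Of the 9 genes with a window, Irs2 alone held an E-box, 44 to 39 bases before the start, shown in capitals in the 100 bases before the start (chr8:11008930-11009029, minus strand, GRCm38.p6).
Irs2: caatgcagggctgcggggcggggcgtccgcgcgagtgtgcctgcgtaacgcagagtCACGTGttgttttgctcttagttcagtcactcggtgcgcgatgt
The match is a description of the letters and not evidence of binding.

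None of the 3 BTG/TOB genes passed, and in each the groups overlapped. Their products recruit the CCR4-NOT deadenylase, which shortens poly(A) tails, and BTG1 and BTG2 are known to keep T cells quiescent. Btg1 was at 8.25, 8.42 and 8.58 in the arrays labelled Myc knockout and at 8.41, 8.31 and 8.36 in the controls. Its values in the arrays labelled Myc knockout spanned those of the controls, with an interval of the log2 difference of −0.17 to 0.28 (exact two-sided permutation p = 0.7). The Btg1 value is uncertain, since mouse has close copies of the gene, Btg1b and Btg1c, whose transcripts a probe set may share.

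Btg2, an early response gene as well as an antiproliferative one, had the widest spread of the 10. It was at 5.77, 6.38 and 6.61 in the arrays labelled Myc knockout and at 5.99, 5.78 and 5.73 in the controls. Among the arrays labelled Myc knockout, replicates 2 and 3 exceeded all controls and replicate 1 lay within the range of the controls. The log2 difference was 0.42 ± 0.21 (95% confidence interval −0.08 to 0.92; limma's adjusted p = 0.404). Without Myc knockout replicate 1 it was 0.66 ± 0.12 (limma's adjusted p = 0.156), and it was then the 1 member higher at an unadjusted p under 0.05. Tob1, a brake on T cell proliferation, was at 5.01, 5.12 and 4.91 in the arrays labelled Myc knockout and at 5.15, 5.03 and 5.03 in the controls, with overlapping groups and an interval of −0.24 to 0.12.

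Of the 9 genes with a window, Btg1 alone held a FOXO core. The 100 bases from 250 to 151 before its start (chr10:96616751-96616850, plus strand, GRCm38.p6) are shown with the match in capitals, which is GTAAACA read on the opposite strand.
Btg1: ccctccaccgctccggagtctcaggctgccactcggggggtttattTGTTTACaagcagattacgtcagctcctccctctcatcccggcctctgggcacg
The match is again a description of the letters only.

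The arrays labelled Myc knockout were not alike over these genes. Replicate 1 was the lowest of the 3 for 8 of the 10 genes, all except Tob1 and Pik3ip1; it was the lowest for 42.6% of the genes at least as bright as the median gene. Without it the median log2 difference of the 10 genes was −0.12, against −0.19 with all arrays. Leaving out any other array gave medians from −0.21 to −0.19. The part of this array in the results was not tested beyond these values.

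**Figure D3:**
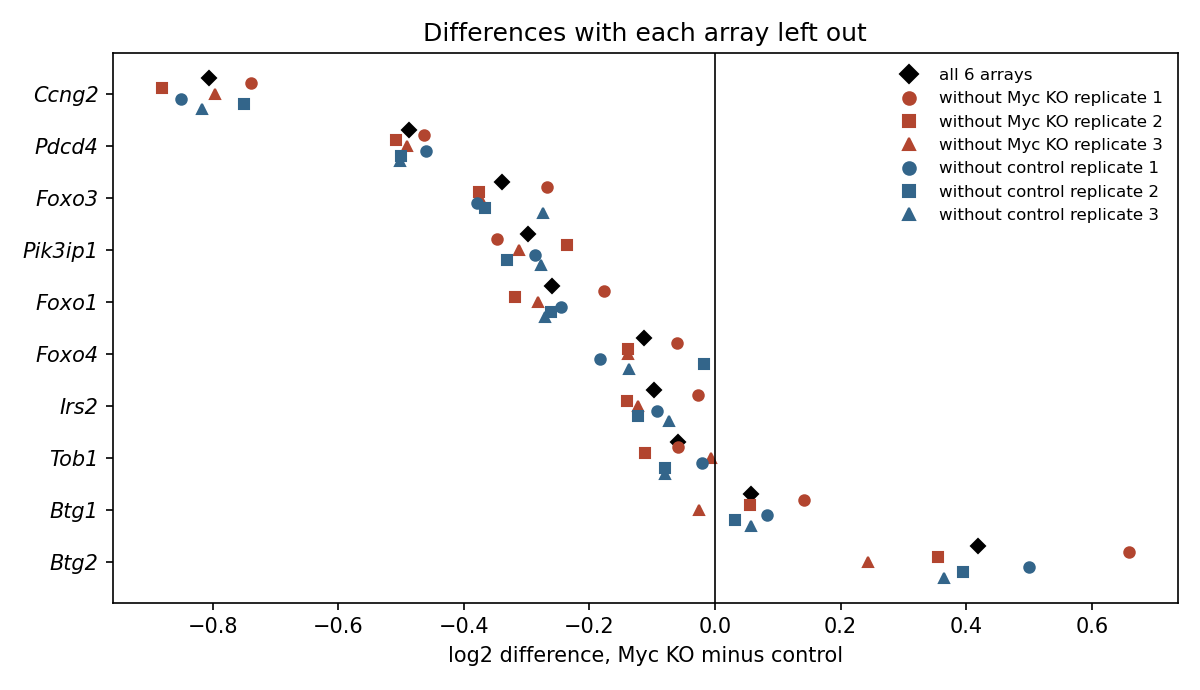
Log2 difference, arrays labelled Myc knockout minus control (horizontal axis), of the 10 genes with all 6 arrays (black diamonds) and with each array left out (red, an array labelled Myc knockout left out; blue, a control left out). Ccng2, Pdcd4, Foxo3, Pik3ip1 and Foxo1 stay negative throughout, and Btg1 crosses 0 without Myc knockout replicate 3.

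The other genes of the pathway were taken from 6 lists with 115 genes, of which 108 were measured. Over them, 4 fell and 0 rose, and at an unadjusted p under 0.05 in limma 15 were lower and 16 higher. Of all genes, 0.198% fell and 0.254% rose, and 7.91% were lower and 6.97% higher at that unadjusted p. The median difference of the 108 was −0.040, against 0.0077 over all genes. Among the genes at least as bright as the median gene it was −0.030. The 4 that fell were all in the list of other FOXO target genes (32 measured). They were Mxi1, which encodes an antagonist of MYC, the CDK inhibitor genes Cdkn1b and Cdkn1a, and the transcriptional repressor gene Bcl6. With any 1 array left out, 0 of the 108 genes passed; at an unadjusted p under 0.05 in limma, 12 to 16 were lower and 9 to 12 higher.

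Bcl6 had 5.95, 6.08 and 6.07 in the arrays labelled Myc knockout, against 6.56, 6.53 and 6.53 in the controls. The controls were nearly equal and all above the other group, which was 1.42-fold lower (limma's adjusted p = 0.0361). Mxi1 fell by 0.61 ± 0.065, Cdkn1b by 0.56 ± 0.068 and Cdkn1a by 0.55 ± 0.064 on the log2 scale (limma's adjusted p = 0.0272, 0.0361 and 0.0353). Mxi1 has 3 annotated starts, and the window of the most downstream one held a FOXO core, in capitals in these 100 bases from 250 to 151 before that start (chr19:53329445-53329544, plus strand, GRCm38.p6).
Mxi1: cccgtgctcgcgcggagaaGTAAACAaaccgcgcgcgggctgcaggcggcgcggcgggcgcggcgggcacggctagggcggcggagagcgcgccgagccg
The windows of Cdkn1a and Cdkn1b held neither motif, and 1 of the 2 windows of Bcl6 held an E-box.

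The target list also held genes with positive differences. Ccr7 and S1pr1, receptor genes of lymphocyte homing and egress that FOXO1 is known to maintain through KLF2 or directly, had the largest positive differences among its members at an unadjusted p under 0.05. Ccr7 was at 5.37, 5.16 and 5.27 in the arrays labelled Myc knockout and at 4.9994, 4.34 and 4.54 in the controls, a log2 difference of 0.64 ± 0.17 (limma's adjusted p = 0.172). S1pr1 was at 4.56, 4.27 and 4.37 in the arrays labelled Myc knockout, against 3.65, 4.09 and 3.73 in the controls, a difference of 0.57 ± 0.13 (adjusted p = 0.141 in limma). In both genes the groups were separated upward, opposite to Ccng2, and neither passed. Of all genes, 9.25% were separated upward. In the list as a whole, 23 of 32 differences were negative with a median of −0.073, and at an unadjusted p under 0.05 in limma 10 were lower and 6 higher. Differences were negative for 47.8% of all genes and for 58.0% of those at least as bright as the median gene.

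Regulators that act on FOXO proteins showed small differences. Of 21 genes of PI3-kinase, AKT and mTORC2, 0 passed and the median was −0.052; at an unadjusted p under 0.05 in limma, 2 were lower and 0 higher. The 2 were Inpp5d, whose lipid phosphatase product SHIP1 opposes PI3-kinase signalling (−0.21 ± 0.057, adjusted p = 0.183), and Pik3cb, a catalytic PI3-kinase subunit (−0.16 ± 0.065, adjusted p = 0.315). Of 18 genes of FOXO modifying and binding factors, 0 passed and the median was −0.016; at an unadjusted p under 0.05 in limma, 5 were higher and 1 was lower. Ywhaz and Ywhag, which encode 14-3-3 proteins, differed by 0.28 ± 0.10 and 0.23 ± 0.075, and Foxk1, another forkhead gene, by −0.25 ± 0.072 (limma's adjusted p = 0.296, 0.244 and 0.207).

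Paralogs and partners of the antiproliferative genes also gave no call. Of 14 BTG/TOB paralogs and CCR4-NOT genes, 0 passed, and 1, the CCR4-NOT subunit gene Cnot9 (0.13 ± 0.056, limma's adjusted p = 0.331), was higher at an unadjusted p under 0.05. Their median difference was −0.020. Of 10 family paralogs and PDCD4 partners, 0 passed, and Ccni, an unconventional cyclin gene related to Ccng2, was lower at an unadjusted p under 0.05 (−0.35 ± 0.066, limma's adjusted p = 0.0977). The other cyclin G gene, Ccng1, named after its values were seen, averaged 8.002 ± 0.056 in the arrays labelled Myc knockout and 7.94 ± 0.16 in the controls. This differs from Ccng2, for which the groups were apart, although the difference between the 2 genes was not tested.

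Genes of lymphocyte quiescence outside the FOXO family were divided. Of 16 measured, 0 passed and the median was −0.047; at an unadjusted p under 0.05 in limma, 4 were higher and 2 lower. Slfn2, a gene needed for T cell quiescence in mice, was at 6.57, 6.57 and 6.58 in the arrays labelled Myc knockout and at 6.20, 6.26 and 6.19 in the controls (log2 difference 0.35 ± 0.053, limma's adjusted p = 0.0611). Zfp36, which encodes the mRNA decay factor tristetraprolin, was at 7.91, 8.86 and 9.14 in the arrays labelled Myc knockout, against 7.96, 7.83 and 7.78 in the controls, with replicate 1 inside the range of the controls (0.78 ± 0.30, limma's adjusted p = 0.301). Foxp1, a forkhead gene that keeps naive T cells quiescent, and Tsc2, a brake on mTORC1, differed by −0.29 ± 0.10 and −0.24 ± 0.061 (adjusted p = 0.265 and 0.171 in limma).

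Proliferation markers were bright in both groups. Mki67 averaged 9.84 ± 0.055 in the arrays labelled Myc knockout and 9.87 ± 0.011 in the controls, and Pcna averaged 10.54 ± 0.069 and 10.45 ± 0.073 in the same order. Of 11 measured, 0 passed and the median difference was 0.089; at an unadjusted p under 0.05 in limma, 3 were higher and 0 lower. Mcm3, a replicative helicase gene, and Cdk1, the mitotic kinase gene, differed by 0.19 ± 0.071 and 0.15 ± 0.061 (limma's adjusted p = 0.295 and 0.331).

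**Figure D4:**
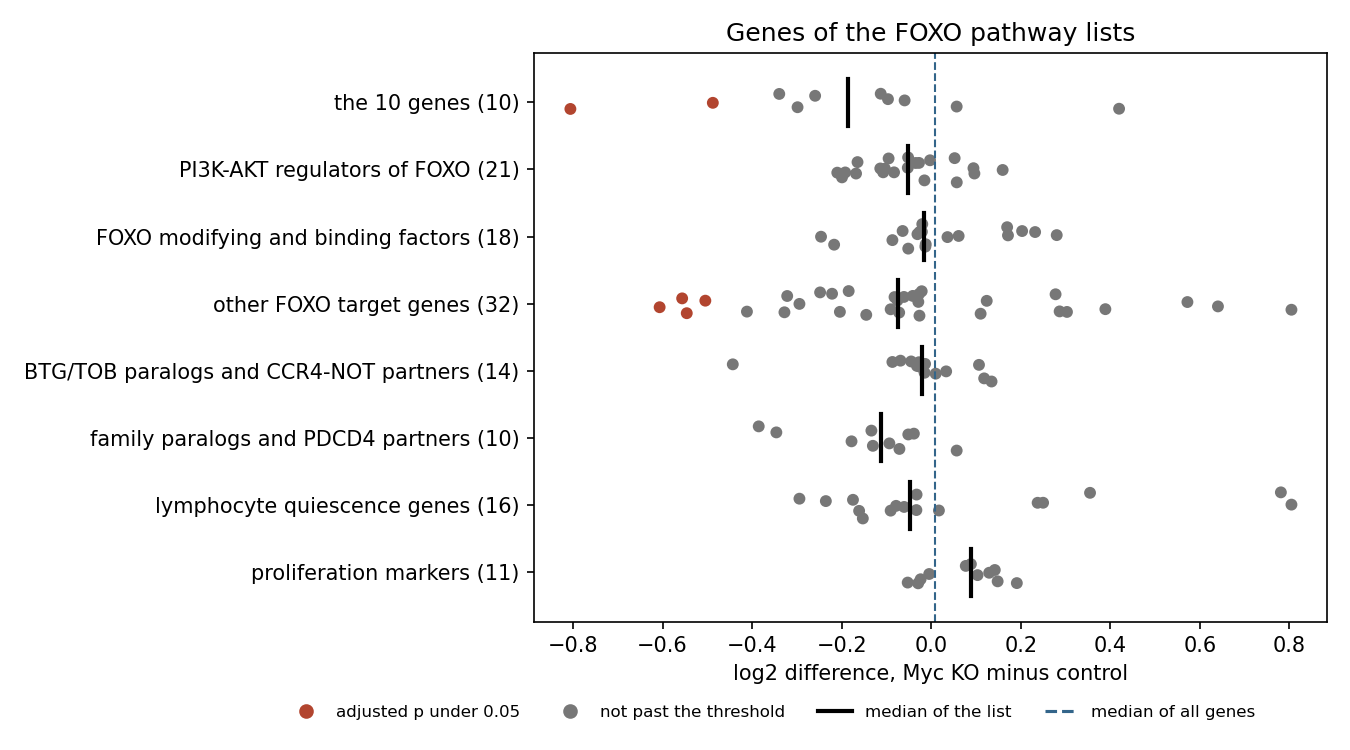
Log2 difference, arrays labelled Myc knockout minus control (horizontal axis), of each measured gene in the 10 genes and 7 further lists (number measured in brackets); red marks an adjusted p under 0.05 in limma, black bars the list medians and the dashed line the median of all genes. The calls are Ccng2 and Pdcd4 among the 10 genes and 4 of the other FOXO target genes; a gene may stand in more than 1 list.

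Markers of other cells were mostly dim, with the brightest exceptions in the T cell, NK cell and myeloid lists. The mean log2 level over 8 T cell markers was 3.16 to 3.28 in the arrays labelled Myc knockout and 3.22 to 3.31 in the controls. None of the 8 was called, and 1, Cd3g, was lower at an unadjusted p under 0.05 in limma. Cd3g, a chain of the T cell receptor complex, averaged 5.04 in the arrays labelled Myc knockout and 5.47 in the controls, with separated groups (limma's adjusted p = 0.220), and Cd8a averaged 4.93 and 4.73 in the same order. For 8 myeloid and mast cell markers the mean level was 2.36 to 2.48 in the arrays labelled Myc knockout and 2.45 to 2.50 in the controls. None was called, and 1, Itgam, was lower at an unadjusted p under 0.05 in limma. Itgam, an integrin gene of myeloid cells that some lymphocytes also express, averaged 5.99 in the arrays labelled Myc knockout and 6.61 in the controls, with separated groups (log2 difference −0.63 ± 0.10, limma's adjusted p = 0.0767). Its difference had the direction of Ccng2 and Pdcd4, but it did not pass, and a link between them was not tested.

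The mean level over 5 B cell markers was 2.23 to 2.41 in the arrays labelled Myc knockout and 2.31 to 2.37 in the controls, with 0 called and 0 at an unadjusted p under 0.05 in limma. For 6 NK cell and ILC1 markers it was 3.59 to 3.79 in the arrays labelled Myc knockout and 3.51 to 3.64 in the controls. None was called, and 1, Ncr1, was higher at an unadjusted p under 0.05 in limma, with dim group means of 2.04 and 1.82. Prf1, the perforin gene, was the bright member of that list, at 7.49 in the arrays labelled Myc knockout and 7.40 in the controls. For 4 ILC3 markers the mean level was 2.48 to 2.51 in the arrays labelled Myc knockout and 2.03 to 2.20 in the controls. Il17a was called higher, at group means of 3.79 and 2.84, and Il17f was higher at an unadjusted p under 0.05 in limma, at 3.56 and 3.23. The part of any of these markers in the differences of the 10 genes was not tested.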

How the data were processed

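Total RNA of 3 arrays labelled Myc knockout and 3 control arrays was measured, with groups taken from the titles. The deposited values are on a log2 scale and were made by the authors with RMA, per the submitters' processing notes, which also name limma 3.14.4. RMA brings the arrays to nearly the same distribution (medians 3.27 to 3.34), so a global change in RNA content would be largely hidden. The array version and probe sets' definition were not given in the sources used here. Of 25206 probe sets, 23185 had 1 gene symbol, 0 several and 2021 none; symbols were updated by gene number from RefSeq (GRCm38.p6). No filter on level was used. Differences were fitted with limma 3.58.1 in R 4.3.3 (lmFit, eBayes, two-sided), no covariate, and the threshold was an adjusted p of 0.05 (Benjamini-Hochberg over all 23185 genes); the procedure was tested on simulated data. Whether replicate numbers pair the arrays is not in the labels. Deviations of same-numbered arrays from their group means correlated at −0.070, −0.012 and −0.017 over all genes. With 3 arrays per group and many dim genes, these values cannot exclude pairing. Arrays carry no depth, and their number limits the precision.

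The 10 genes and the lists were chosen with earlier results of these data known. Named were all 10, Myc, Mki67, Pcna, the 3 genes most like the member with the smallest p, and of each pathway list, marker lists aside, the genes that passed and up to 2 in each direction with the largest differences at an unadjusted p under 0.05. A gene that passed is named once. Markers were named after their values were seen. List members without a value are not analysed here. Promoter sequences are RefSeq's. Alternatives were a replicate block, an intensity trend, a robust prior, array weights, median centring, cyclic loess, a filter on dim genes, all probe sets, protein-coding genes only and each array left out. Figures were drawn with matplotlib 3.10.9.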

Additional observations from a re-analysis of the deposited data

How the results depend on the processing

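The signs of 9 of the 10 differences (arrays labelled Myc knockout minus control) held under all 15 alternatives. Btg1, which did not pass, ranged from −0.026 (Myc knockout replicate 3 left out) to 0.141 (Myc knockout replicate 1 left out). The replicate block, intensity trend, robust prior, filter on dim genes, all probe sets and protein-coding genes only left all 10 differences unchanged. A sign could therefore change only under array weights, median centring, cyclic loess and each array left out. The 2 calls among the 10 genes, Ccng2 and Pdcd4, held under 8 alternatives and were lost under 7: with the replicate block (0 members passed, limma's adjusted p = 0.114 and 0.177) and with each array left out (0 members passed each time). The replicate block also left 0 pathway genes and 0 genes in all in either direction. At an unadjusted p under 0.05 in limma, 1560 were then lower and 1486 higher. The block adds parameters to a fit of 6 arrays, and whether their numbers pair them is not known. With each array left out, 0 pathway genes passed, and over all genes 0 to 2 rose and 0 to 1 fell (1311 to 1572 higher and 1454 to 1688 lower at an unadjusted p under 0.05, against 1616 and 1834). At an unadjusted p under 0.05, 4 to 5 of the 10 genes were lower and 0 to 1 higher with an array left out; Foxo1 missed it without control replicate 1, and Btg2 was higher without Myc knockout replicate 1. With an intensity trend, 162 genes rose and 208 fell in all, and among pathway genes 1, Slfn2, rose and 5 fell, with Ccni added; with dim genes left out (mean level under the median gene's) 204 rose and 345 fell, and among pathway genes 2, Slfn2 and Txnip, rose and 6 fell, with Ccni and Gadd45b added. With the main settings 59 genes rose and 46 fell in all, and 0 pathway genes rose and 4 fell. Median centring gave 61 higher and 61 lower calls and cyclic loess 70 and 38, with Ccng2 and Pdcd4 called under both. The median of the 10 genes was −0.12 without Myc knockout replicate 1, and −0.21 to −0.12 with any array left out. Where no value above shows it, the cause was not tested. Dim probe sets lie close to background, which limits what Foxo6, Irs1, Irs3 and Irs4 can show.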

Other observations

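Several genes followed the array order of Btg2 within the arrays labelled Myc knockout; these genes were chosen after their values were seen. By the same measure of likeness, the gene closest to Btg2 over the 6 arrays was Nr4a1, an activation-induced nuclear receptor gene, with a root mean square difference of 0.0528. Next came 1700069L16Rik, a long non-coding RNA gene, and Pcdhgb1, at 0.0568 and 0.0771. Both were dim, with group means between 1.58 and 2.47, below the array medians. Pcdhgb1 was equal, at 2.73, in replicates 2 and 3 of the arrays labelled Myc knockout. Nr4a1, 1700069L16Rik and Pcdhgb1 were chosen by likeness to Btg2, which made a shared pattern nearly certain, so it is no separate result. Klf2 and Zfp36, given below, were not picked by this measure. The share of all genes with this array order was not counted. Replicate 1 was the lowest array labelled Myc knockout for 42.6% of the genes at least as bright as the median gene. Nr4a1 was at 4.98, 5.64 and 5.83 in the arrays labelled Myc knockout and at 5.19, 5.07 and 5.08 in the controls. Klf2, a quiescence factor gene that FOXO1 activates in T cells, was at 4.26, 5.13 and 5.75 in the arrays labelled Myc knockout, against 3.98, 4.29 and 4.45 in the controls (log2 difference 0.80 ± 0.36, limma's adjusted p = 0.358). Zfp36 had the same order of its 3 arrays labelled Myc knockout. In Btg2, Nr4a1, Klf2 and Zfp36, replicate 1 of the arrays labelled Myc knockout lay within or below the range of the controls, and replicates 2 and 3 lay above every control.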
